A study of Homo sapiens with 208 samples.

Results

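The genes described here are 10 receptor tyrosine kinases and ligands that can carry growth signals past EGFR, namely MET and its ligand HGF, AXL and its ligand GAS6, FGFR1, FGFR2, FGFR3 and the ligand FGF2, MST1R, and KIT. They were chosen by name, and their probes were found through the accession that the array files give for each probe. The 10 genes had 16 probes, among the 16961 genes with a named probe. RNA came from PC9, a human lung adenocarcinoma line whose EGFR carries an activating deletion, and from PC9M2, a gefitinib-resistant derivative that the labels call PC9GRM2, obtained by long culture of PC9 in low doses of the drug. PC9M2 is 1 surviving clone, so that it stands for itself and not for gefitinib resistance as such. Both lines were starved for 48 h and sampled at 26 time points, at 0, 0.5 and 1 h and then hourly to 24 h, and all 8 courses share the starvation. The 4 treatments were no treatment, 0.5 µM gefitinib from 2 h before the first sample, EGF at 100 ng/ml added at 0 h, and the 2 agents together.

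Receptor tyrosine kinases sit in the plasma membrane, and binding of a ligand brings a pair of them together so that they phosphorylate each other and feed the ERK and AKT pathways. Several of them can drive these same pathways in lung adenocarcinoma cells when EGFR is blocked, and MET and AXL are known for it. The ligands HGF and FGF2 are made by stromal cells in many tissues, whereas GAS6 is also made by tumor cells.

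Each course had 1 array per time point and no replicate array, and its time points took the place of replicates, so that the p-values measure the spread between time points of 1 series of cultures. The 4 treatments of a line at a time point shared a slide, whereas the lines shared 0 of the 52 slides and 0 scan days, so that the line and the scan period cannot be told apart. The scanner software marked 24755 to 36332 features of an array as well above background, and no member's probe was saturated on any array. Over all features, it marked 221 to 1702 as saturated on each PC9 array and 0 on every PC9M2 array. The scans of the lines thus differed in their bright end, and the part of this in the line differences was not tested. The 6 epithelial markers EPCAM, CDH1, KRT7, KRT8, KRT18 and KRT19 were well above background on all 104 arrays of both lines. Of the fibroblast markers, COL3A1 was well above background on 2 of 104 PC9 arrays and 4 of 104 PC9M2 arrays, DCN on 19 and 12, and LUM on 1 in each line. Of the blood markers, CD14 was well above background on all 104 arrays of both lines, CD3E on 52 and 32 in the probe tested, and PTPRC on 1 and 0. Of the endothelial markers, PECAM1 was so on 103 and 104 arrays, VWF on all 104 and CDH5 on 18 and 16. Of the mesenchymal markers, VIM and SNAI2 were so on all 104 and FN1 on 46 and 66 in the probe tested. ZEB1 was so on 9 and 2 and CDH2 on 2 and 0. Of the lung lineage markers, NAPSA was so on 103 and 104, SFTPB on 46 and 43 and NKX2-1 on 9 and 4. The better NKX2-1 probe was so on 70 and 98. Without treatment the mesenchymal gene VIM was lower in PC9M2 (-1.28) and SNAI2 and FN1 were higher (1.63 and 0.93). The endothelial genes PECAM1 and VWF were lower (-1.50 and -1.02). KRT19 and KRT18 were higher (1.71 and 0.80), KRT8 and KRT7 lower (-1.32 and -0.34), and CDH1 and EPCAM did not pass. NAPSA and SFTPB were higher (0.57 and 0.41). The part of such differences in the results was not tested. The negative feedback genes DUSP6 and SPRY4, which ERK activity induces, fell with gefitinib by 6.80 and 4.99 (log2) in PC9 and by 2.17 and 1.61 in PC9M2. A set of 6 arrays correlated less well with the rest of their course than the others did, with a median r of 0.932 to the nearest time points for PC9M2 without treatment at 11 h. The other such arrays were PC9 with gefitinib at 14 and 16 h, PC9 without treatment at 18 h, PC9 with EGF at 16 h and PC9 with both agents at 16 h. They were chosen after seeing the data, and results that change without them are given with both values.

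Levels are log2 of the quantile-normalized signal. A difference is the mean over the 26 matched time points of log2 values, its fold is 2 raised to that mean, and its adjusted p is from limma (two-sided moderated test), adjusted after Benjamini and Hochberg over the 13263 genes tested, with a threshold of 0.05. Of the members, 8 of 10 genes and 11 of the 16 probes cleared the background on 13 or more arrays in some course and were tested. FGF2 and KIT were not tested. The probe of KIT, the receptor of stem cell factor, was well above background on 0 of the arrays and lay between 1.96 and 3.43. The probe of FGF2, a ligand of the FGF receptors, was well above background on 2 of the arrays and lay between 1.88 and 2.89. Neither gene had a level to compare.

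To place the genes in the genome, the 250 bases before the annotated start are shown for AXL and GAS6, which stood highest above PC9 in PC9M2, for FGFR3, which rose with gefitinib, and for MET, whose probes disagreed. The sequences are from RefSeq with its GRCh38.p14 coordinates, printed 5′ to 3′ along the strand of the gene. They are AXL on the plus strand at chr19:41218973-41219222, GAS6 on the minus strand at chr13:113864077-113864326, FGFR3 on the plus strand at chr4:1793043-1793292 and MET on the plus strand at chr7:116671946-116672195. Capitals mark GC boxes, GGGCGG or its reverse complement CCGCCC, and overlapping matches were counted.
AXL: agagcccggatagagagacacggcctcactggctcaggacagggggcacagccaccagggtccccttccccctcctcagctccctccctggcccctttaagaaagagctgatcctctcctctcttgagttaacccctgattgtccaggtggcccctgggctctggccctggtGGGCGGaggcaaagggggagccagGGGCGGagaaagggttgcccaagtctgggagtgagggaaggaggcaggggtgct
GAS6: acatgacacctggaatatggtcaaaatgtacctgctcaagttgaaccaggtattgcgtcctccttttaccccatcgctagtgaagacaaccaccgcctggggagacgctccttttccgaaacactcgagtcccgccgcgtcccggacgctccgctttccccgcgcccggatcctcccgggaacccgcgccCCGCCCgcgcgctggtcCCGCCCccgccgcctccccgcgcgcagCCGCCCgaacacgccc
FGFR3: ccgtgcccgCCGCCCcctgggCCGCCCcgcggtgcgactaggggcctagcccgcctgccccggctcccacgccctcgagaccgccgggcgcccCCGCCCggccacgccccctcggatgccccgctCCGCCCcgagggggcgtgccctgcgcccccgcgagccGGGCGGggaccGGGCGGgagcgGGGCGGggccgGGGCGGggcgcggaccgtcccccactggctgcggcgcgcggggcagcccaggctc
MET: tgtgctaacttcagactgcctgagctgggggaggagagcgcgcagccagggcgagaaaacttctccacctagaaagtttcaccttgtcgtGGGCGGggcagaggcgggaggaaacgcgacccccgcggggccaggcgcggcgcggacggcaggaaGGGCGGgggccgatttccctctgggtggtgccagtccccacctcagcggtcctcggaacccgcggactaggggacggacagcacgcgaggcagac

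The windows of AXL and MET held 2 GC boxes each, that of GAS6 held 3 and that of FGFR3 held 8, and 42.6% of the 35116 promoters in the table held at least 1. Another annotated start of AXL had none. The AP-1 site TGAGTCA, or TGACTCA, was in none of the 4 windows and in 4.2% of all promoters. The forkhead core TGTTTAC, or GTAAACA, was in none of the 4 and in 2.98%.

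The comparison of the lines without treatment asks which of these genes differ between the resistant and the sensitive cells before any drug is given. AXL, which binds GAS6, and GAS6 itself were higher in PC9M2, AXL by 3.47 (log2, 11.1-fold) and GAS6 by 3.16 (8.91-fold), and FGFR3 was higher by 0.42. The other 5 tested genes did not pass the test, so that 3 of 8 tested genes passed it, beside 68.1% of all genes tested. Under gefitinib 4 of 8 passed, beside 64.9%, under EGF 7 of 8, beside 69.8%, and under both agents 4 of 8, beside 67.7%.

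The receptor AXL had the widest gap. Its log2 signal in PC9 without treatment had a lowest, median and highest value of 6.80, 7.09 and 7.63 over the 26 arrays. In PC9M2 without treatment these values were 9.60, 10.62 and 11.39, the lowest on the 11 h array named above. No array of PC9 reached the lowest array of PC9M2, with a gap of 1.97 between the ranges. Under gefitinib the log2 signal was 4.33, 6.72 and 7.34 in PC9, with the lowest at 14 h on an array named above, and 9.31, 10.49 and 11.73 in PC9M2. Under EGF it was 6.85, 7.23 and 7.65 in PC9 and 10.19, 10.78 and 11.48 in PC9M2, and under both agents 5.89, 6.80 and 7.23 against 9.32, 10.52 and 11.65. The ranges of the lines stood apart under every treatment, by 1.96, 2.54 and 2.09 under gefitinib, EGF and both.

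The mean AXL difference, PC9M2 minus PC9, was 3.47 (SE 0.117, adjusted p = 1.1e-20) without treatment, 3.84 (SE 0.142, adjusted p = 1.36e-19) under gefitinib, 3.55 (SE 0.0919, adjusted p = 1.71e-23) under EGF and 3.77 (SE 0.107, adjusted p = 1.56e-22) under both agents. It was positive at 26 of 26 time points in each. The difference was larger at the start, with 4.47 at 0 h and 3.09 at 24 h without treatment. AXL in PC9M2 declined over the course, by 1.15 from 0 to 24 h in the fitted spline without treatment (adjusted p = 0.00411) and by 1.95 under gefitinib, with a fitted range of 1.96 (adjusted p = 9.52e-09). The fitted range of AXL in PC9 without treatment was 0.35 (adjusted p = 0.431), and the median range over all genes tested was 0.98 in that course. In such bulk RNA, fewer cells of a type and less RNA per cell cannot be told apart.

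GAS6, the ligand that bridges AXL to membrane phosphatidylserine, was high in the same line. Its log2 signal without treatment was 5.65, 6.46 and 7.53 (lowest, median, highest) in PC9 and 8.43, 9.71 and 10.32 in PC9M2. Under EGF it was 5.59, 6.55 and 6.99 in PC9 and 8.41, 9.63 and 10.26 in PC9M2. The ranges of the lines did not overlap in these 2 conditions, with gaps of 0.90 and 1.41. Under gefitinib the values were 5.70, 7.20 and 8.57 in PC9 and 8.03, 10.07 and 10.57 in PC9M2, and under both agents 5.90, 7.24 and 8.58 in PC9 and 8.18, 10.24 and 10.65 in PC9M2. Here the highest PC9 arrays reached above the lowest PC9M2 arrays.

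The GAS6 difference between the lines was 3.16 (SE 0.114, adjusted p = 6.2e-20) without treatment and 3.14 (SE 0.100, adjusted p = 2.58e-21) under EGF. It was 2.56 (SE 0.178, adjusted p = 2.65e-13) under gefitinib and 2.76 (SE 0.157, adjusted p = 2.15e-15) under both agents, and it was positive at 26 of 26 time points in all 4. Under gefitinib it averaged 3.26 over the first 13 time points and 1.87 over the last 13. The AXL and GAS6 line differences passed the test in all 16 settings tried, at sizes that fell with normexp background correction to 2.20 for AXL and 1.58 for GAS6 without treatment.

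**Figure D1:**
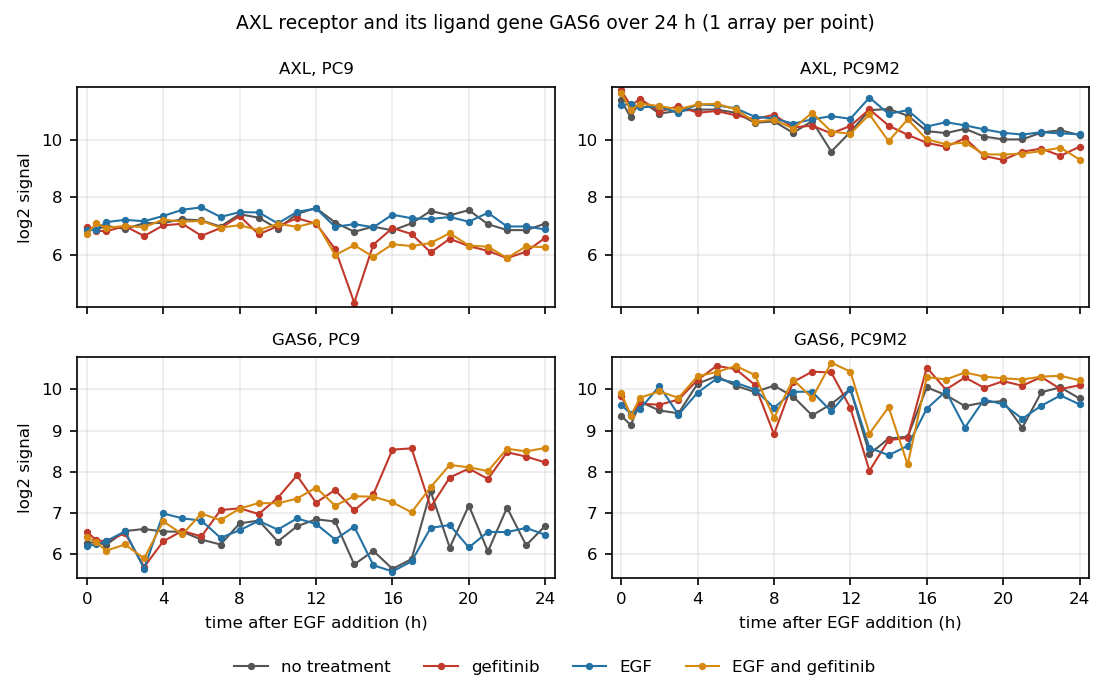
Log2 signal of AXL (upper panels) and GAS6 (lower panels) against time after EGF addition in hours, with PC9 on the left and PC9M2 on the right; each point is 1 array and each line is 1 treatment. The highest AXL value of PC9 is 7.65 and the lowest of PC9M2 is 9.31, and GAS6 in PC9 drifts upward in the gefitinib courses.

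PROS1, the other ligand of this receptor family, was also higher in PC9M2 without treatment, by 2.18 (SE 0.174, adjusted p = 4.51e-12, 25 of 26 time points). The sister receptor TYRO3 differed by -0.03 (adjusted p = 0.773). The remaining family member MERTK had no named probe. Thus 1 of 2 tested genes passed, beside 68.1% of all genes tested, and the median of the 2 was 1.08 beside -0.05 over all genes tested.

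MET, the receptor of hepatocyte growth factor, was read by 3 probes, and the probes did not tell the same story about the lines. Probe A_23_P359245, with 10 spots per array and a median SD of 0.0699 between them, was well above background on every array. Probe A_23_P145844 was so on 193 and A_23_P145846, whose larger variance made it the probe of the gene-level test, on 164. The levels of different probes cannot be set against each other.

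In probe A_23_P359245 the log2 signal without treatment was 10.52, 11.27 and 12.07 (lowest, median, highest) in PC9 and 11.46, 11.74 and 12.92 in PC9M2. In probe A_23_P145844 it was 5.17, 6.69 and 7.64 in PC9 and 5.21, 6.09 and 7.43 in PC9M2. In probe A_23_P145846 it was 4.62, 5.99 and 7.37 in PC9 and 4.92, 5.56 and 6.69 in PC9M2. The median was higher in PC9M2 for the first probe and lower for the other two, and the ranges overlapped in all 3.

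PC9M2 minus PC9, the difference in probe A_23_P359245 was 0.52 (SE 0.112, adjusted p = 1.74e-04) without treatment, 0.59 (adjusted p = 2.37e-06) under gefitinib, 0.37 (adjusted p = 0.0049) under EGF and 0.50 (adjusted p = 1.21e-04) under both, adjusted over 29927 probes. In probe A_23_P145844 the same differences were -0.30 (adjusted p = 0.19), 0.07 (adjusted p = 0.784), -0.35 (adjusted p = 0.0448) and -0.31 (adjusted p = 0.131). In probe A_23_P145846 they were -0.24 (adjusted p = 0.28), -0.02 (adjusted p = 0.94), -0.38 (adjusted p = 0.0497) and -0.25 (adjusted p = 0.271). Under EGF, then, 1 probe passed the test as higher in PC9M2 and the other two as lower, close to the threshold. The gene-level call under EGF (-0.38, adjusted p = 0.0479) was lost without the 6 arrays named above (-0.37, adjusted p = 0.0666).

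Without treatment, the line difference in probe A_23_P359245 was 1.66 at 0 h and 0.23 at 24 h, and it averaged 0.98 over the first 13 time points and 0.07 over the last 13. These 2 averages were 0.81 and 0.36 under gefitinib, 0.83 and -0.10 under EGF and 0.85 and 0.14 under both agents. With gefitinib a difference was thus still seen in the later hours, with 0.64 at 24 h. In the fitted spline without treatment this probe went from 10.68 at 0 h to 11.22 at 24 h in PC9 (adjusted p = 7.81e-05) and from 12.14 to 11.53 in PC9M2 (adjusted p = 0.00799). The other probes in PC9 had their fitted maximum at 0 h and a later minimum, at 10.75 h for A_23_P145846. Across arrays, A_23_P145844 and A_23_P145846 correlated at r = 0.916, whereas A_23_P359245 correlated with them at 0.625 and 0.58 (all arrays, which share slides and time points).

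**Figure D2:**
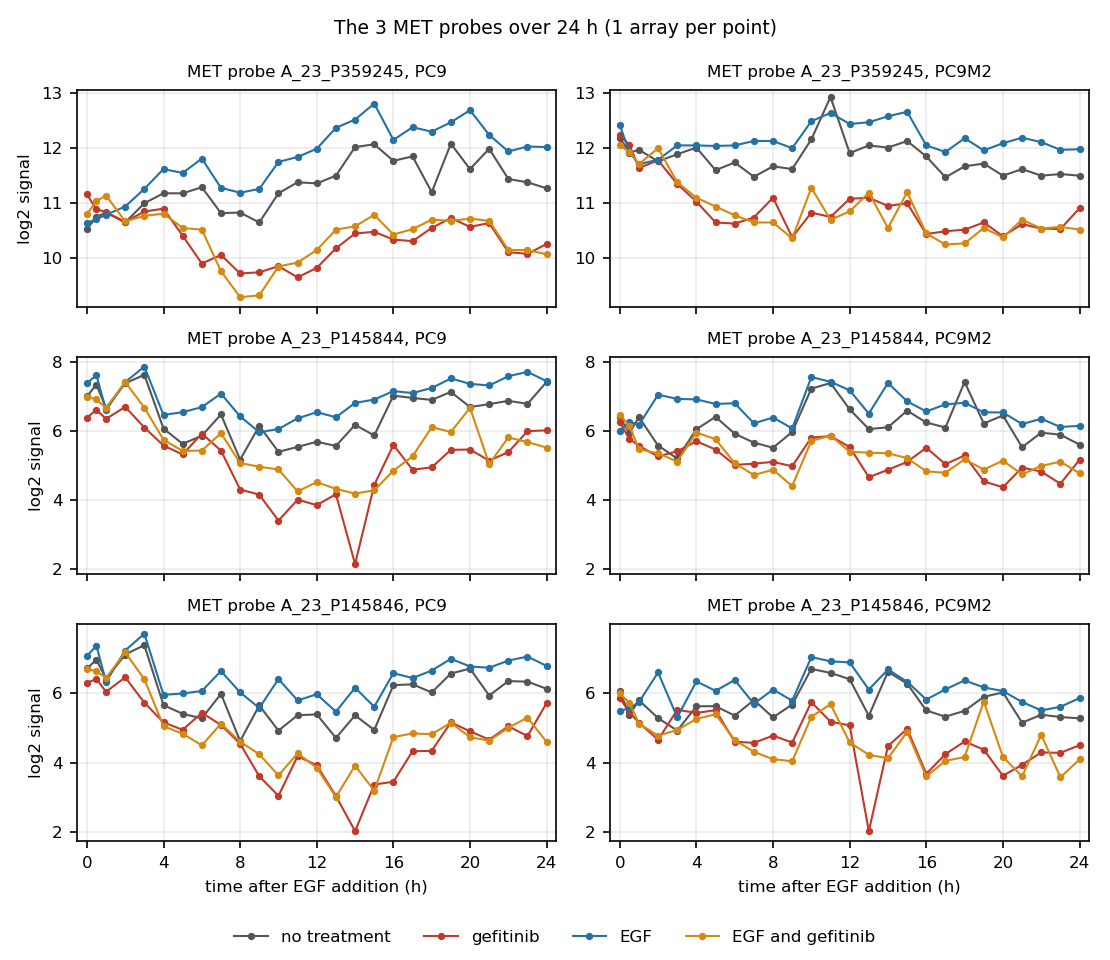
Log2 signal of the 3 MET probes (rows) against time after EGF addition in hours in PC9 (left) and PC9M2 (right); each point is 1 array. In all 3 probes the gefitinib courses run on average below the courses without the drug, although in A_23_P359245 the PC9 course with gefitinib starts above the untreated one. The early difference between the lines is seen in A_23_P359245.

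MET's ligand HGF was near the detection limit. Its better probe was well above background on 141 of the arrays and the other on 1. Under EGF the log2 signal was 1.87, 4.48 and 5.58 (lowest, median, highest) in PC9 and 3.33, 4.97 and 5.94 in PC9M2, with ranges that overlapped. The line difference was 0.65 (SE 0.211, adjusted p = 0.00777, higher at 19 of 26 time points). Without treatment it was 0.49 (adjusted p = 0.113), under gefitinib 0.57 (adjusted p = 0.0518) and under both agents 0.12 (adjusted p = 0.654). The call under EGF was lost with time points 3 h apart (0.25, adjusted p = 0.481).

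MST1R, the receptor of macrophage-stimulating protein and the nearest relative of MET, was bright in both lines. Its log2 signal without treatment was 11.43, 12.00 and 12.84 in PC9 and 10.69, 12.44 and 12.71 in PC9M2, the lowest of the latter on the 11 h array named above, and the ranges overlapped. The line difference was 0.19 (adjusted p = 0.108) without treatment, 0.38 (SE 0.114, adjusted p = 0.00494) under gefitinib, 0.35 (SE 0.0778, adjusted p = 2.09e-04) under EGF and 0.24 (SE 0.101, adjusted p = 0.0375) under both. Without the 6 arrays the difference without treatment was 0.26 (adjusted p = 0.00881). The differences were small at first and larger later, with means of -0.08 and 0.83 over the first and last 13 time points under gefitinib, and the calls under gefitinib, EGF and both were lost with time points 3 h apart (adjusted p = 0.101, 0.117 and 0.409).

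Among 13 other genes of the HGF and MSP pathways, 12 were tested. Without treatment 4 were higher in PC9M2, 4 lower and 4 did not pass, with a median of 0.04 beside -0.05 over all genes tested. Of all genes tested, 68.1% passed in this comparison, in either direction. GAB1, the docking protein of MET, was at -2.55 (adjusted p = 4.29e-16) and CBL, the ubiquitin ligase that removes MET from the membrane, at -2.25 (adjusted p = 1.23e-11), both lower at 26 of 26 time points.

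The FGF receptors bind FGFs together with heparan sulfate and signal through the adaptor FRS2. FGFR1 was lower in PC9M2 in the gefitinib conditions, whereas FGFR3 in its brighter probe was higher there without the drug and did not pass with it. FGFR1 without treatment had a log2 signal of 4.72, 5.83 and 7.02 (lowest, median, highest) in PC9 and 4.40, 6.30 and 7.52 in PC9M2. The FGFR1 line difference was 0.19 (adjusted p = 0.288) without treatment, which passed with time points 3 h apart (0.57, adjusted p = 0.0108), and 0.69 (SE 0.134, adjusted p = 4e-05) under EGF. It was -1.03 (SE 0.160, adjusted p = 1.94e-06, lower at 24 of 26 time points) under gefitinib and -1.11 (SE 0.178, adjusted p = 2.97e-06) under both agents. Its sign under EGF alone was thus the opposite of that in both gefitinib conditions. With the variance inflated for autocorrelation the difference under both agents did not pass (adjusted p = 0.0874).

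For FGFR3, probe A_23_P500501 without treatment had a log2 signal of 8.06, 8.62 and 9.04 in PC9 and 7.79, 9.01 and 9.68 in PC9M2. The line difference in this probe was 0.42 (SE 0.0909, adjusted p = 1.7e-04) without treatment and 0.73 (SE 0.0612, adjusted p = 1.37e-11, 26 of 26 time points) under EGF, and it was -0.20 (adjusted p = 0.12) under gefitinib and 0.10 (adjusted p = 0.434, 25 time points, since the spot at 19 h in PC9 with both agents was marked as an outlier) under both. The dimmer probe A_23_P212830, well above background on 134 of the arrays, gave -0.19 (adjusted p = 0.569) without treatment, -0.93 (adjusted p = 0.00337) under gefitinib, -0.13 (adjusted p = 0.641) under EGF and -0.57 (adjusted p = 0.0335) under both. The probes agreed neither on the higher level without drug nor on the lower level with it. Without treatment the dimmer probe was well above background on 13 of 26 PC9 arrays and 8 of 26 PC9M2 arrays, and under EGF on 11 and 5. In these 2 conditions it lay near the detection limit and cannot decide against the brighter probe.

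FGFR2 was well above background on 100 of the arrays in its best probe and on 2 and 10 in the others. Without treatment its log2 signal was 2.35, 4.61 and 5.56 in PC9 and 3.04, 4.64 and 6.91 in PC9M2. Its differences between the lines were 0.34, 0.32, 0.22 and 0.24 in the 4 conditions, with adjusted p from 0.076 to 0.245, and the first of them passed without the 6 arrays named above (0.42, adjusted p = 0.0279). FGFR2 passed the test in no comparison of lines or treatments.

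Of 19 other genes of the FGF pathway, 15 were tested. Without treatment 6 were higher in PC9M2, 6 lower and 3 did not pass, with a median of -0.04 beside -0.05 over all genes tested. FGF21, a hormone-like FGF, had the largest difference at -3.45 (adjusted p = 1.42e-16), followed by FGF1, a ligand of all FGF receptors, at -2.96 (adjusted p = 1.68e-16), both lower at 26 of 26 time points. The 3 tested genes of the KIT pathway were all lower in PC9M2, among them the KIT ligand KITLG at -1.5 (adjusted p = 1.96e-10) and the adaptor SH2B3, which restrains KIT signaling, at -1.78 (adjusted p = 4.41e-15). Of 35 other receptor tyrosine kinases 19 were tested, and 6 were higher, 7 lower and 6 did not pass, with ERBB2, the partner of EGFR and ERBB3, at 1.5 and CSF1R, the receptor of macrophage colony-stimulating factor, at -2.48. The counts of the FGF, KIT and other kinase lists stand beside 68.1% of all genes tested that passed, in either direction.

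The second question was how these genes moved when EGFR was inhibited. In PC9, gefitinib raised FGFR1 9.35-fold, FGFR3 9.71-fold and GAS6 1.77-fold, and MET, MST1R and AXL fell. In PC9M2 these genes rose as well, FGFR1 4.01-fold, FGFR3 6.31-fold and GAS6 1.17-fold, and MET and MST1R fell. In PC9 6 of 8 genes passed the test, beside 72.3% of all genes tested, and in PC9M2 5 of 8, beside 66.7%. When EGF was present as well, 6 of 8 passed in PC9, beside 78.9%, and 6 of 8 in PC9M2, beside 74.5%. The courses with gefitinib are each set against the matching course without it, and the comparisons share slides within a line.

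FGFR1 was close to its untreated level when the series began and climbed from there. In PC9 its log2 signal was 4.72, 5.83 and 7.02 (lowest, median, highest) without treatment and 5.24, 9.76 and 11.52 with gefitinib, with the lowest at 0 h. In PC9M2 it was 4.40, 6.30 and 7.52 without treatment and 6.15, 8.25 and 9.28 with gefitinib, with the highest at 24 h. The gefitinib arrays that lay within the untreated range were those from 0 to 2 h in PC9, and those from 0 to 4 h and the one at 10 h in PC9M2.

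The FGFR1 difference with gefitinib in PC9 was -0.02 at 0 h, 0.63 at 1 h, 1.72 at 3 h, 2.81 at 6 h, 4.23 at 12 h and 4.92 at 24 h. From 3 h on, every time point was more than 2-fold higher. In PC9M2 the difference was -0.02 at 0 h, 0.15 at 3 h, 1.74 at 6 h, 2.40 at 12 h and 3.84 at 24 h, and it stayed above 2-fold from 5 h on. The means were 3.22 (SE 0.290, adjusted p = 1.08e-10, higher at 25 of 26 time points) in PC9 and 2.01 (SE 0.273, adjusted p = 2.39e-07, 23 of 26) in PC9M2. With EGF present they were 3.92 (15.1-fold, adjusted p = 7.46e-10) and 2.12 (4.33-fold, adjusted p = 1.2e-07), and the latter did not pass with the variance inflated for autocorrelation (adjusted p = 0.167). Within scan days, the FGFR1 mean was higher with gefitinib on 8 of 8 days in PC9 (from 0.57 to 5.23) and on 8 of 9 in PC9M2. Normexp background correction reduced the means to 1.69 and 0.88, both still past the test.

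FGFR3 rose earlier and then levelled off in PC9M2. In probe A_23_P500501 the log2 signal with gefitinib was 8.44, 12.39 and 13.36 in PC9, against 8.06, 8.62 and 9.04 without treatment. In PC9M2 it was 8.73, 12.07 and 12.60 with gefitinib and 7.79, 9.01 and 9.68 without. In both lines the median with gefitinib was above every untreated array.

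The FGFR3 difference with gefitinib was -0.46 at 0 h, 1.21 at 2 h, 2.76 at 6 h, 3.96 at 12 h and 4.99 at 24 h in PC9, and it was above 2-fold at every time point from 2 h. In PC9M2 it was -0.10 at 0 h, 0.32 at 2 h, 3.10 at 6 h, 3.04 at 12 h and 3.59 at 24 h, above 2-fold from 3 h. The means were 3.28 (SE 0.291, adjusted p = 8.51e-11, 25 of 26 time points) in PC9 and 2.66 (SE 0.228, adjusted p = 5.53e-11, 24 of 26) in PC9M2. The dimmer probe gave 2.98 (adjusted p = 1.09e-09) and 2.24 (adjusted p = 2e-11). With EGF present the means in the brighter probe were 3.89 (14.8-fold, 25 time points) and 3.29 (9.76-fold). Within scan days, the FGFR3 mean of that probe was higher with gefitinib than without treatment on 8 of 8 and 9 of 9 days. With EGF present it was higher on 8 of 8 and 8 of 9. The 2 FGFR3 probes, which differed on the lines, moved alike with gefitinib.

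**Figure D3:**
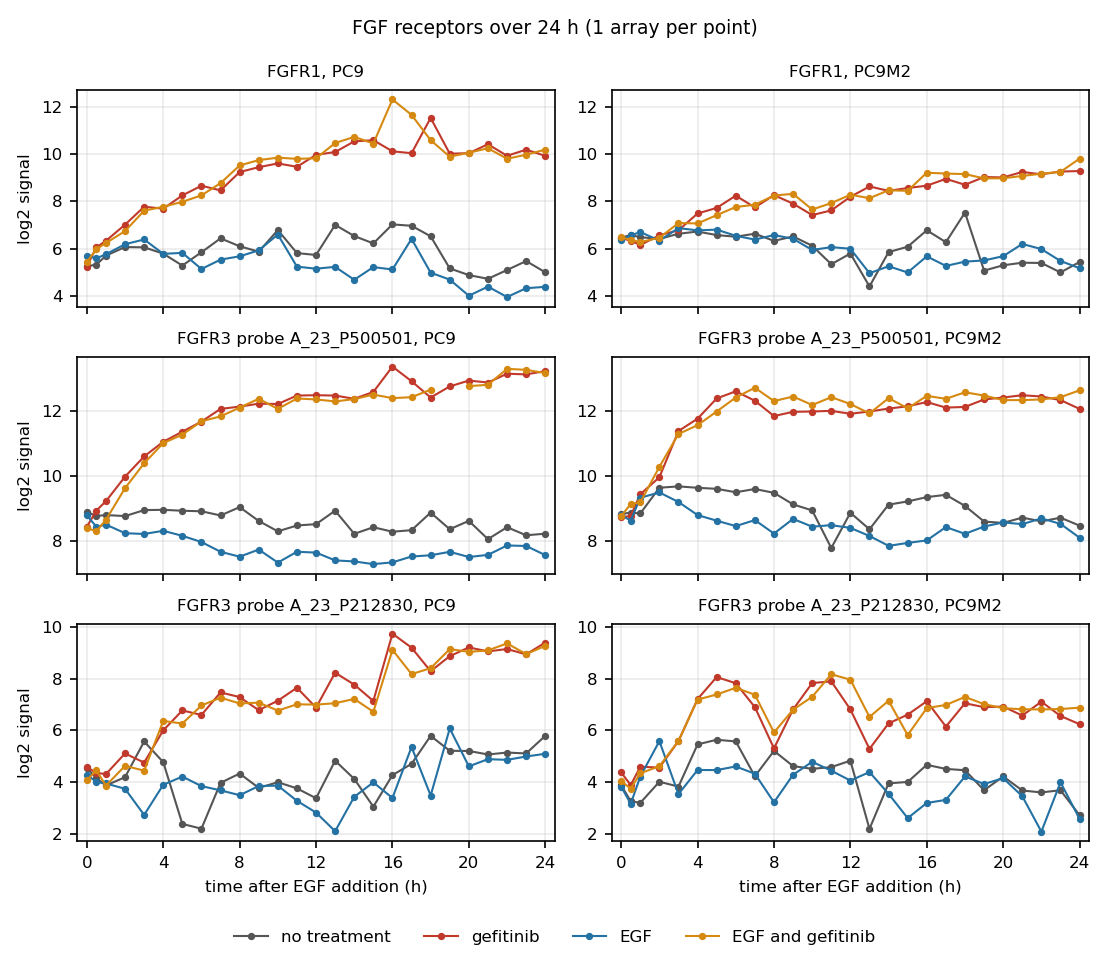
Log2 signal of FGFR1 and of the 2 FGFR3 probes (rows) against time after EGF addition in hours in PC9 (left) and PC9M2 (right); each point is 1 array, and the gap at 19 h is a spot marked as an outlier. The gefitinib courses leave the others within the first hours and end 4.92 (FGFR1) and 4.99 (FGFR3 A_23_P500501) above the untreated PC9 array at 24 h.

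GAS6 with gefitinib rose late in PC9. Its difference was 0.27 at 0 h, 0.08 at 6 h, 0.40 at 12 h and 1.54 at 24 h, with means of 0.23 and 1.42 over the first and last 13 time points. The mean was 0.82 (SE 0.178, adjusted p = 1.66e-04, higher at 22 of 26 time points). In PC9M2 the difference was 0.48 at 0 h and 0.32 at 24 h with a mean of 0.23 (SE 0.0888, adjusted p = 0.0241, 19 of 26). With EGF present GAS6 rose by 0.80 (adjusted p = 1.47e-05, but 0.178 with the variance inflated for autocorrelation) in PC9 and 0.42 (adjusted p = 5.55e-05) in PC9M2. The PC9 call was lost with time points 3 h apart (0.47, adjusted p = 0.162), and the PC9M2 call without pairing of the time points (adjusted p = 0.197). In the fitted spline GAS6 in PC9 with gefitinib went from 6.35 at 0 h to 8.38 at 24 h (adjusted p = 5.14e-07), whereas without treatment its fitted range was 0.48 (adjusted p = 0.797).

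AXL, the receptor of that ligand, did not move with it. In PC9 its mean difference with gefitinib was -0.52 (SE 0.113, adjusted p = 1.6e-04, lower at 22 of 26 time points), and with EGF present -0.56 (SE 0.0729, adjusted p = 7.27e-08, 25 of 26). The first of these was -0.42 (adjusted p = 6.4e-05) without the 6 arrays, among which the 14 h array held the lowest AXL value, and the fall by 0.52 became 0.15 with normexp correction. In PC9M2 the difference was -0.16 (SE 0.0785, adjusted p = 0.0793) and passed without the 6 arrays (-0.19, adjusted p = 0.0262), and with EGF present it was -0.34 (adjusted p = 2.36e-04, but 0.0861 with time points 3 h apart). Over the first and last 13 time points AXL averaged -0.16 and -0.89 in PC9 and 0.14 and -0.45 in PC9M2. The AXL mean of gefitinib against no treatment was lower on 8 of 8 scan days in PC9 and on 5 of 9 in PC9M2.

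MET fell with gefitinib in all 3 probes and both lines. In probe A_23_P359245 the log2 signal in PC9 went from 10.52, 11.27 and 12.07 (lowest, median, highest) without treatment to 9.64, 10.37 and 11.15 with gefitinib. In PC9M2 it went from 11.46, 11.74 and 12.92 to 10.37, 10.78 and 12.23. The medians with gefitinib lay below every untreated array in both lines, and the ranges overlapped.

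The mean MET differences with gefitinib in PC9 were -0.95 (SE 0.122, adjusted p = 9.33e-08) in A_23_P359245, -1.33 (SE 0.153, adjusted p = 1.32e-08) in A_23_P145844 and -1.25 (SE 0.155, adjusted p = 4.53e-08) in A_23_P145846. In PC9M2 they were -0.88 (adjusted p = 3.74e-09), -0.96 (adjusted p = 2.31e-08) and -1.03 (adjusted p = 9.38e-07). With EGF present they lay between -1.38 and -1.57 in PC9 and between -1.25 and -1.43 in PC9M2. In probe A_23_P359245 the difference in PC9 was 0.62 at 0 h, -0.28 at 4 h and -1.39 at 6 h, and in PC9M2 it was 0.05 at 0 h and -0.99 at 4 h. The probes thus differed on the lines but not on the sign of the drug's effect, although in the gene-level probe normexp correction reduced the fall by 1.25 in PC9 to one by 0.21, still past the test. With gefitinib that probe was well above background on 16 of 26 arrays in each line, so that part of its values lay near the detection limit.

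MST1R fell with gefitinib by 0.62 (SE 0.0915, adjusted p = 8.73e-07, lower at 23 of 26 time points) in PC9 and by 0.43 (SE 0.0807, adjusted p = 3.18e-05, 24 of 26) in PC9M2. The log2 signal with gefitinib was 10.59, 11.72 and 12.32 in PC9 and 11.44, 11.87 and 12.04 in PC9M2. HGF and FGFR2 did not pass with gefitinib in either line, with HGF at -0.08 (adjusted p = 0.789) in PC9 and -0.01 (adjusted p = 0.97) in PC9M2 and FGFR2 at -0.09 (adjusted p = 0.629) and -0.10 (adjusted p = 0.553).

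Around these receptors, 8 of the 12 tested genes of the HGF and MSP pathways rose with gefitinib in PC9, 2 fell and 2 did not pass, with a median of 0.87 beside -0.02 over all genes tested. Those with the largest change were the proteases HPN, which activates HGF, at 2.48 (adjusted p = 6.12e-10) and TMPRSS2 at 2.26 (adjusted p = 1.98e-13). In PC9M2 also 8 rose, 2 fell and 2 did not pass, with a median of 0.58 beside -0.01, led by the mucin MUC20 at 2.49 and TMPRSS2 at 2.03. Of the 15 tested genes of the FGF pathway 4 rose, 9 fell and 2 did not pass in PC9, with a median of -0.36 beside -0.02, and 3 rose, 9 fell and 3 did not pass in PC9M2. FGF19, an endocrine FGF, was the largest in both, at -2.65 (adjusted p = 1.15e-10) in PC9 and -1.87 (adjusted p = 8.45e-13) in PC9M2. FGFR1 and FGFR3 rose in the same courses. Of all genes tested, 72.3% passed in PC9 and 66.7% in PC9M2, in either direction. The shares of all genes that rose and that fell are not given here. The list counts here and in the next paragraph are thus not read as responses of a pathway.

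PROS1 rose with gefitinib by 0.82 in PC9 and 0.86 in PC9M2, and TYRO3 fell by 0.46 and 0.38. In the KIT pathway SH2B3 fell by 2.61 in PC9 and 1.16 in PC9M2. Of the 19 other receptor tyrosine kinases tested, 9 rose, 7 fell and 3 did not pass in PC9, and 10 rose, 7 fell and 2 did not pass in PC9M2. CSF1R rose most in both, by 3.72 and 3.73, and EPHA2, an ephrin receptor, fell by 2.89 in PC9. The rise of FGFR1 and FGFR3 in PC9 (3.22 and 3.28) was of the size of the largest on that list.

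The lines were then compared in their response. The effect of gefitinib differed between them in 4 of 8 genes, beside 34.0% of all genes tested. FGFR1 rose less in PC9M2 by 1.22 (difference of differences -1.22, SE 0.162, adjusted p = 1.26e-06, negative at 25 of 26 time points), a call that held in all 15 settings tried. FGFR3 gave -0.62 (SE 0.133, adjusted p = 5.64e-04, 18 of 26) in its brighter probe and -0.74 (adjusted p = 0.0175) in the other. GAS6 gave -0.59 (SE 0.187, adjusted p = 0.0149, 17 of 26) and AXL 0.37 (SE 0.0991, adjusted p = 0.00502, 19 of 26). FGFR3, GAS6 and AXL were called in 12, 10 and 11 of 15 settings, and AXL turned to -0.0032 (adjusted p = 0.972) with normexp correction. The 3 MET probes, at 0.06, 0.37 and 0.22, did not pass (adjusted p = 0.612, 0.0743 and 0.274), nor did MST1R (0.19, adjusted p = 0.166). DUSP6 and SPRY4 fell less in PC9M2 than in PC9, with a median difference of 4.01 for the 2, and the part of that in these results was not tested.

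EGF alone moved fewer of these genes. In PC9 3 of 8 passed, beside 25.6% of all genes tested, and in PC9M2 3 of 8, beside 9.13%. MET rose in every probe, by 0.49, 0.52 and 0.53 (A_23_P359245, A_23_P145844 and A_23_P145846, each at 24 of 26 time points) in PC9 and by 0.33, 0.47 and 0.39 in PC9M2, and all 6 passed the test, the largest adjusted p being 0.00309. In A_23_P359245 the log2 signal with EGF was 10.63, 11.88 and 12.80 in PC9 and 11.70, 12.06 and 12.65 in PC9M2, and overlapped the untreated range. FGFR3 fell by 0.80 (SE 0.0684, adjusted p = 2.54e-09, 26 of 26 time points) in PC9 and by 0.50 (SE 0.103, adjusted p = 0.00188, 22 of 26) in PC9M2 in its brighter probe, while the other probe gave -0.36 (adjusted p = 0.231) and -0.30 (adjusted p = 0.369). FGFR1 fell by 0.57 (SE 0.132, adjusted p = 0.0018) in PC9, and in PC9M2 its difference was -0.06 (adjusted p = 0.819). AXL rose by 0.18 (SE 0.0565, adjusted p = 0.036) in PC9M2 and differed by 0.11 (adjusted p = 0.0786) in PC9. With time points 3 h apart, the calls of AXL (0.13, adjusted p = 0.403), FGFR3 (adjusted p = 0.0841) and MET (0.39, adjusted p = 0.255) in PC9M2 and of FGFR1 in PC9 (-0.44, adjusted p = 0.19) were lost.

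For MET, FGFR1 and FGFR3 the sign under EGF was the opposite of that under gefitinib. The untreated courses are shared by the gefitinib and the EGF comparisons, so that the values are set side by side only. Without pairing of the time points the MET rise did not pass in PC9 (adjusted p = 0.109) or PC9M2 (adjusted p = 0.255), nor did the fall of FGFR1 (adjusted p = 0.1). Within scan days, MET was higher with EGF on 8 of 8 days in PC9 and 8 of 9 in PC9M2 in A_23_P359245, and FGFR3 lower on 8 of 8 and 8 of 9. The effect of EGF differed between the lines in 0 of 8 genes, beside 1.33% of all genes tested. When gefitinib was already present, EGF moved 0 of 8 genes in PC9, beside 0.0452%, and 0 of 8 in PC9M2, beside 3.21%, by limma's test. At an unadjusted p under 0.05 these 3 counts were 3 for the difference between the lines, 2 in PC9 and 3 in PC9M2, and the methods' t-test with adjustment also gave 0 for each. The share of all genes at the unadjusted threshold was not worked out, so that these counts cannot be read as an excess. For FGFR1 and FGFR3 these differences were 0.12 and -0.16 in PC9 and 0.05 and 0.13 in PC9M2, and for the gene-level MET probe 0.22 and -0.01.

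**Figure D4:**
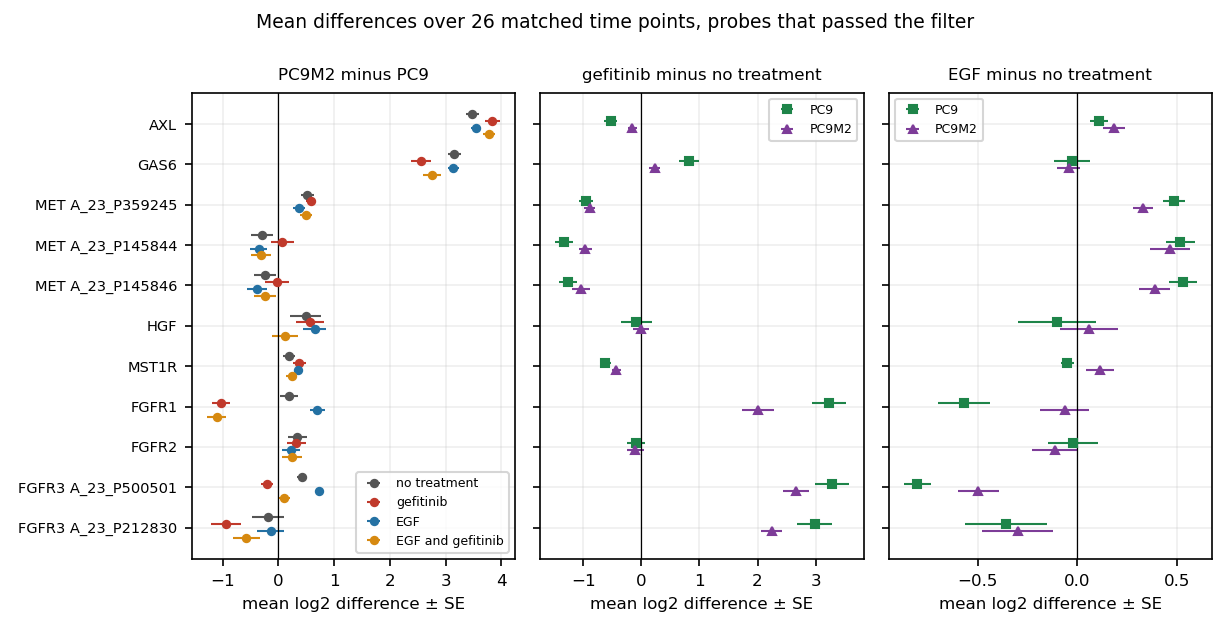
Mean log2 difference over matched time points with its SE for each probe that passed the filter, PC9M2 minus PC9 under 4 treatments (left), gefitinib minus no treatment (middle) and EGF minus no treatment (right) in each line. AXL and GAS6 stand apart in the left panel, FGFR1 and FGFR3 in the middle one, and the 3 MET probes are on both sides of 0 in the left panel and on 1 side in the others.

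Change over time within a course was tested with a spline, and 5 of 8 genes passed in PC9 without treatment, beside 66.3% of all genes tested. With gefitinib, EGF and both agents 5, 6 and 7 passed in PC9, beside 77.8%, 78.8% and 83.1%. In PC9 with gefitinib AXL, HGF and FGFR2 did not pass, with fitted ranges of 0.83, 2.6 and 1.07 (adjusted p = 0.112, 0.0503 and 0.131). Without the 6 arrays named above they passed, with ranges of 0.77, 2.77 and 1.09 (adjusted p = 9.44e-04, 0.00485 and 0.0226). In PC9M2 7, 4, 7 and 6 passed under no treatment, gefitinib, EGF and both, beside 67.2%, 63.7%, 74.9% and 67.7%. FGFR1 had a fitted range of 4.82 with gefitinib in PC9 and 3.16 in PC9M2, and FGFR3 of 4.57 and 3.87, beside medians over all genes of 1.11 and 0.81. The fitted maximum of FGFR3 came at 24 h in PC9 and at 7 h in PC9M2. MST1R went down by 1.33 from 0 to 24 h in PC9 with gefitinib (fitted range 1.41, adjusted p = 2.64e-07). In PC9M2 without treatment it was fitted at 11.54 at 0 h and 12.32 at 24 h (adjusted p = 0.00557). That call was lost with scan day as a block (adjusted p = 0.0755) and with a 3-df spline (adjusted p = 0.231). HGF passed in PC9M2 without treatment (range 2.09, adjusted p = 0.0073), under EGF (1.35, adjusted p = 0.00308) and under both (1.79, adjusted p = 0.00359), with its lowest fitted value near 11.25 h without treatment and under EGF. These HGF calls were lost with scan day as a block (adjusted p = 0.121, 0.0864 and 0.151). Time of sampling and scan day run together within a line, and with scan day as a block 3 of 8 genes passed in PC9 and 2 of 8 in PC9M2 without treatment. Over all genes the untreated PC9M2 count fell as well, to 5152 of 13263 from 8911. The matching count over all genes in untreated PC9 is not given here.

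The genes with the most similar pattern over all arrays were, by Pearson's r, MAGEA9 (0.971) and PNPLA4 (0.965) for AXL, EEF1G (0.95) and SLC4A3 (0.948) for GAS6, KRT9 (0.933) and CRIP1 (0.932) for FGFR1, and ATP6V1B1 (0.976) and ALPG (0.97) for FGFR3. For the gene-level MET probe they were ITGB1 (0.844) and SHLD2 (0.836), and for MST1R STMN3 (0.875) and SNRPB (0.847). The dimmer FGFR2 and HGF had no gene above 0.694 and 0.596. The arrays share lines, treatments, time points and slides, so that these values describe likeness over this design.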

How the data were processed

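RNA was hybridised to 208 one-colour Agilent arrays of 45015 features. Per the file headers, Agilent Feature Extraction 10.5.1.1 gave a processed intensity for each spot. The authors deposited these intensities beside a table of quantile-normalized intensities, which is not on the log2 scale. Here the processed intensities of non-control features were quantile-normalized over all arrays, given a floor of 1 and log2-transformed, without the 0.2627% of spots marked as outliers. Replicate spots were averaged within probes, 24794 of 41000 probes were named through RefSeq accessions, and, as in the methods of the study, the probe with the largest variance stood for a gene. A gene was tested where 13 or more arrays of some course showed it above background.

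Differences between courses at the same time point were tested with limma 3.58.1 in R 4.3.3 (moderated test, Benjamini-Hochberg, 0.05), and change over time with a spline of 4 degrees of freedom. The tests were tried on simulated data. Pairing came from the shared time point and, within a line, the shared slide. Deviations of same-time arrays had a median r of 0.684 (PC9) and 0.728 (PC9M2) between the courses without treatment and with EGF, but between the lines of 0.195 without treatment and 0.00118 with gefitinib.

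The named genes of each pathway list were its 2 tested genes with the largest absolute mean difference in a comparison, together with genes that a sentence compares with them, and the similar genes were the 2 with the highest r. The members and lists were chosen with earlier results of these data known. Alternatives were 75th-percentile scaling, normexp background correction (offset 50) on median signals, the deposited table, other probe, floor and filter rules, the methods' t-test, a one-sided test, no pairing, time points 3 h apart, variance inflated for autocorrelation, scan day as a random block, a 3-df spline and, added later, leaving out the 6 arrays that stood apart.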

Additional observations from a re-analysis of the deposited data

Results flagged for a closer look

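The effect of gefitinib differed between the lines in 4 of the genes by the test of the difference itself, PC9M2 minus PC9, beside 34.0% of all genes tested. FGFR1 gave -1.22, FGFR3 -0.6222, GAS6 -0.5915 and AXL 0.3654 on the log2 scale. FGFR1 rose 9.35-fold with gefitinib in PC9 and 4.01-fold in PC9M2, and FGFR3 rose 9.71-fold and 6.31-fold. GAS6 differed in the later hours, with a mean of 0.01 over the first 13 time points and -1.19 over the last 13. AXL was at -0.52 in PC9 and -0.16 in PC9M2. Of the 15 settings tried, FGFR1 was called in 15, FGFR3 in 12, AXL in 11 and GAS6 in 10.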

How the results depend on the processing

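Values rest on 1 array per time point, the line is confounded with the scan period, and dim probes (HGF, FGFR2, the gene-level MET probe, the second FGFR3 probe) limit precision. The line differences of AXL and GAS6 passed in 16 of 16 settings. The differences of gefitinib against no treatment in FGFR1 and FGFR3 passed in 15 of 15 in both lines. With EGF present, FGFR1 in PC9M2 passed in 14 of 15. For single genes, 1 value was reversed with normexp correction, AXL's difference of the gefitinib effect at -0.0032 (adjusted p = 0.972), and 4 with the MET probe of highest mean in place of the most variable one, at 0.52 without treatment, 0.59 under gefitinib, 0.37 under EGF and 0.50 under both, PC9M2 minus PC9.

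Counts of members called that moved by over 1.5 times are listed here, and the shares of all genes in the tests as first run are given above. Counts over all genes that moved by over 1.5 times are in the next paragraph. Where a setting is not named there, the count over all genes moved by 1.5 times or less. The member counts are thus not read as a result about the members. With 75th-percentile scaling, and again without the 6 arrays that stood apart, 8 changed over time in PC9 with gefitinib, and without those arrays 5 differed between the untreated lines. With normexp correction 2 differed in the gefitinib effect between lines, and with the mean of all probes 3 changed over time in untreated PC9. Without the pairing of time points (no replicate block), 1 passed for EGF in PC9, 1 for EGF in PC9M2 and 1 for the difference of the gefitinib effect. With time points 3 h apart these were 4 between the lines under EGF, 0 for EGF in PC9M2 and 2 for the difference of the gefitinib effect. With variance inflated for autocorrelation they were 4 between the lines under EGF, 2 under both agents and 1 for EGF in PC9M2. With scan day as a random block they were 1 for the difference of the gefitinib effect, and over time 3 in untreated PC9, 2 in untreated PC9M2, 4 in PC9M2 with EGF and 3 with both. With a 3-df spline 2 changed over time in untreated PC9M2. The causes were not tested.

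Over all genes, the difference of the gefitinib effect counted 4507 genes, and 2025 unpaired, 1037 with time points 3 h apart, 2717 with inflated variance and 2022 with scan day. EGF counted 3395 in PC9, and 400 unpaired and 548 at 3 h. EGF in PC9M2 counted 1211, and 89 unpaired, 14 at 3 h and 518 with inflated variance. EGF on top of gefitinib counted 6 in PC9, with 0 to 20 in other settings, and 426 in PC9M2, with 0 unpaired, 117 at 3 h and 107 with inflated variance. The difference of the EGF effect counted 177, with 287 under normexp, 2 unpaired, 0 at 3 h and 53 with inflated variance. A one-sided test for higher in PC9M2 called 4091 genes without treatment, where the two-sided test called 9033, and 4043, 4330 and 4151 against 8614, 9260 and 8980 under gefitinib, EGF and both. At 3 h apart the line counts without treatment, under EGF and under both were 5887, 5734 and 5723, and with inflated variance those under gefitinib and both were 5580 and 5625. With scan day, genes changing over time were 6814 against 11027 in PC9 with both agents, and in PC9M2 5152, 3557, 6369 and 4547 against 8911, 8445, 9940 and 8985.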

Other observations

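With no filter on dim genes, FGF2 was at -0.19 (adjusted p = 0.00394) without treatment, -0.18 (adjusted p = 0.00617) under EGF and -0.12 (adjusted p = 0.0363) under both, PC9M2 minus PC9, although its probe was well above background on 2 of the arrays. HPN, which rose by 2.48 with gefitinib in PC9, was at -0.01 (adjusted p = 0.913) in PC9M2, and the difference of these effects was -2.50 (adjusted p = 4.68e-08). No course had HPN well above background on more than 20 of its 26 arrays, so that part of its values lay near the detection limit. The size of these HPN differences is uncertain for that reason. FGF19, which fell with gefitinib in both lines, was higher in PC9M2 without treatment by 1.62 (adjusted p = 3.69e-07), at 25 of 26 time points. ERBB2 rose with gefitinib by 1.98 in PC9 and 1.11 in PC9M2, and this gene was also higher in untreated PC9M2 by 1.5.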
